A study of Mus musculus with 4 samples.

Results

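Plec, Ahnak, Macf1, Dst, Sptan1, Sptbn1 and Utrn encode 7 giant scaffold proteins of the cytoskeleton, and their mRNAs were examined in 2 lists of peaks from mouse macrophage RNA recovered with IGF2BP2. A peak is a stretch of the genome where sequenced fragments, counted as tags, pile up. The genes were chosen by the measured values of these same lists, as giant scaffold genes with peaks, so the number of genes with a peak and the size of their levels describe the choice and are not tested. Every peak that the authors assigned to 1 of the 7 gene identifiers on the gene's own strand was taken, which gave 76 of the 15511 peaks of replicate 1 and 109 of the 22570 peaks of replicate 2. All 7 genes had such a sense peak in both libraries, among 7214 genes with one in either library. As the background, 17.0% of 21951 protein-coding genes had a sense peak in both libraries.

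IGF2BP2 is an RNA-binding protein that recognises mRNAs carrying N6-methyladenosine and is known to stabilise many of them. Plectin, the product of Plec, ties intermediate filaments to actin, microtubules and adhesion sites. MACF1 and dystonin, from Macf1 and Dst, are its relatives that join actin to microtubules. The spectrins SPTAN1 and SPTBN1 form tetramers under the cell membrane, utrophin is the widely expressed relative of dystrophin, and AHNAK is a very large protein of the cell cortex that binds annexin A2 and S100A10. Such proteins set the shape, stiffness and motility of macrophages, and their coding sequences are among the longest in the genome.

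The series held 4 libraries from bone marrow-derived macrophages (BMDMs): 2 immunoprecipitations of IGF2BP2, each with its own peak list, and 2 inputs without an analysed file. The antibody field names an antibody against IGF2BP2, whereas the protocol names a monoclonal Flag antibody, so which of them pulled down the RNA could not be settled. Mouse strain, age, stimulation of the cells, and whether the replicates were separate cultures were not given in the sources used here. With no input value, an mRNA that was bound and one that was merely abundant cannot be told apart in any result that follows.

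The lists held 189393 tags in replicate 1 and 324456 in replicate 2, a ratio of 1.71, while the number of reads behind them is unknown. Of 8 macrophage markers, 5 had a sense peak in each library, with 1515 and 2494 tags summed over the list. Csf1r alone held 932 and 1421 of these, whereas Lyz2 and Cd14 had none in either library. The 26 markers of T cells, B cells, neutrophils, fibroblasts, endothelium, epithelium, muscle and erythroid cells held 12 tags in 2 genes in replicate 1 and 10 tags in 1 gene in replicate 2.

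The 7 scaffold mRNAs differed widely in their level. Their peaks held 1888 tags in replicate 1 (0.997% of all tags) and 3664 in replicate 2 (1.13%). Plec alone carried 46.3% and 45.4% of these tags, and Plec, Ahnak and Macf1 together 89.9% and 91.8%. Because a longer mRNA offers more room for tags, levels between genes were set side by side only as tags per kb of exon of the longest coding transcript, where the median gene with a peak had 3.36 in replicate 1 and 4.69 in replicate 2. Plec had 56.6 and 108 tags per kb, above 97.4% and 98.1% of genes with a peak. Ahnak followed with 24.3 and 59.3, and Macf1 with 16.3 and 26.7. These leading genes stood in the same order in both libraries. Peaks mainly in introns are counted in these values, and 4 of the 5 Ahnak peaks of replicate 1 were of that kind. The remaining peak held 225 of its 440 tags there, so the place of Ahnak above Macf1 in replicate 1 rests on the intronic peaks.

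The middle of the order was not settled. Sptan1 had 13.3 and 10.9 tags per kb, Sptbn1 3.66 and 13.1, and Utrn 4.28 and 5.73. Sptbn1 was thus below Utrn and Sptan1 in replicate 1 and above both in replicate 2. Dst stood last in both libraries with 0.259 and 1.59 tags per kb, above 0.125% and 17.7% of genes. The ratio of replicate 2 to replicate 1 ran from 0.822 in Sptan1, the single gene with fewer tags in replicate 2, to 6.17 in Dst, which rests on 6 tags in replicate 1. Over 3729 protein-coding genes with peaks in both libraries and an exon length the median ratio was 1.62, with 5% of genes below 0.465 and 5% above 5.34, so Dst alone lay outside that range.

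**Figure D1:**
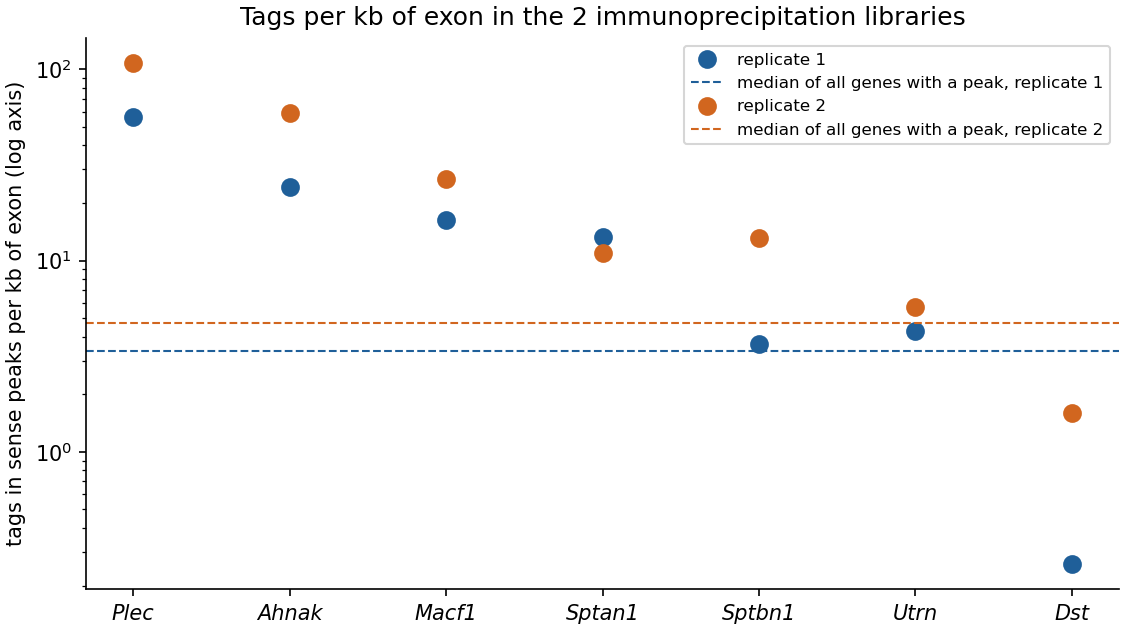
Tags in sense peaks per kb of exon (log axis) for the 7 scaffold genes, ordered by the mean of the libraries; each point is 1 library, and dashed lines give the median of all genes with a peak in that library. Plec, Ahnak, Macf1 and Sptan1 lie above both lines in both libraries and Dst lies below both. Sptan1, Sptbn1 and Utrn change places in the order between libraries.

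The number of peaks per gene is no measure of binding between genes, since the lowest peak listed rose with the gene's level. The lowest peak height, the greatest number of tags stacked on 1 base, was 18 and 23 in Plec and 22 and 25 in Ahnak, against 7 and 8 in Macf1 and 4 in both libraries in Dst and Utrn. Across 716 and 1162 genes with 5 or more peaks, the lowest height and the tags per kb had a Spearman's rho of 0.697 and 0.700, given as a description over genes of the same libraries. Sense peaks of Plec with 10 stacked tags were thus in neither list, while peaks of Utrn with 4 were in both.

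Plec (ENSMUSG00000022565.15, chr15:76170974-76232574 on GRCm38, minus strand) had 15 peaks with 874 tags in replicate 1 and 18 peaks with 1662 tags in replicate 2. Of the peak summits, 12 of 15 and 17 of 18 fell in the first 50% of the coding sequence, in a row of short exons that encode the actin-binding and plakin domains. Tags were less one-sided than summits, since the last exon, 33, held 198 of the 874 tags and 578 of the 1662. Among pairs with both summits in the same exon, exon 15 had the most tags, with a peak of 154 tags over exons 14 to 16 in replicate 1 and one of 80 tags in replicate 2, whose summits were 7 nt apart. The sequence between and around these summits is shown because it carries the most tags of these pairs. It reads 5′ to 3′ on the minus strand of chr15:76188934-76189033, with GGAC, the core of the motif in which N6-methyladenosine is most often found, in capitals here and in the sequences that follow.
Plec exon 15: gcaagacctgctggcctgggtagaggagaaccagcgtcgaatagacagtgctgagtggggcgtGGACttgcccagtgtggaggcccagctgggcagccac

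The long exons at the 3′ end of Plec gave another picture. Exon 32 (chr15:76178519-76181899, 3381 nt, 66.1% GC), which encodes the rod of plectin and is present in all 13 coding transcripts annotated across it, had no sense peak in either library. The authors' lists placed there 1 antisense peak of 10 tags in replicate 1 and 3 antisense peaks with 18 tags in replicate 2. These were all of the antisense peaks at Plec. Their heights were 8 in replicate 1 and 6 in replicate 2, below the lowest listed sense heights of Plec, 18 and 23. Sense signal of the height of the antisense peaks could thus be present in exon 32 without being listed. The next exon, 33 (chr15:76170974-76178385, 7412 nt, 60.3% GC), was well covered in both libraries but at different places. Replicate 1 had 3 peaks with 198 tags there, 1 of them (57 tags) in the 3′ untranslated region (3′UTR). Replicate 2 had 1 peak of 3424 nt with 578 tags, which began 34 nt away from the nearest peak of replicate 1 and did not overlap it. This long peak had the most tags of any replicate 2 peak in the 7 genes. Its height of 48 was below the 71 of an Ahnak peak. Exon 32 is shown over 100 nt opposite the antisense peak of replicate 1, on the minus strand of chr15:76179883-76179982.
Plec exon 32: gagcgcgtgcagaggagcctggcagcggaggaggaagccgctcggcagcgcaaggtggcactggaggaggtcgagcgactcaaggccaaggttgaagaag
It holds no GGAC and is 66% G and C, against 64% in the stretch of exon 15.

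Ahnak (ENSMUSG00000069833.13, chr19:8989284-9076914, plus strand) had 5 peaks with 440 tags in replicate 1 and 8 peaks with 1073 tags in replicate 2. Its exon 5 of 17498 nt encodes nearly the whole protein. Replicate 1 had 1 peak in it, of 225 tags at chr19:9010029-9011442, and replicate 2 had 3 with 702 tags. The peak of replicate 1 was met by one of 361 tags at chr19:9009958-9011332, and the summits were 24 nt apart in the middle of the coding sequence, at 53.7% and 53.5% of its length. A second strong peak of replicate 2, with 263 tags, and a peak of 78 tags in the 3′UTR had no partner in replicate 1. The stretch around the paired summits is shown as the strongest signal repeated in any of the 7 genes (plus strand, chr19:9010399-9010498).
Ahnak exon 5: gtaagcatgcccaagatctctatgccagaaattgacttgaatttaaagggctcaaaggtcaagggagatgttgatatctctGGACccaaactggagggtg
Exon 5 encodes many copies of a similar unit, and 28.0% of the 30-nt words of the transcript occurred in it more than once, against 0.454% in Plec and 0% in the other 5 genes. Within the Ahnak peaks the share was 19.9% and 28.7%, so how reads that fit several copies were placed bears on these positions, and its part in them was not tested.

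The other shared positions of Ahnak lay at the 5′ end of the gene. A peak over the end of exon 4, which the long transcript and a short one encoding only the N-terminal part both contain, had 82 tags in replicate 1 and 136 in replicate 2, with summits 1 nt apart. Inside the first part of the gene, at positions that are intronic in both coding transcripts, a pair of peaks was found again in each library. The first held 45 and 71 tags at chr19:8991253-8991745 and chr19:8991237-8991743. The second held 33 and 41 tags at chr19:8991785-8992252 and chr19:8991771-8992242. Replicate 1 had 1 more intronic peak, of 55 tags, without a partner, and replicate 2 had peaks of 53 and 70 tags at exons 2 and 3 without one.

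Macf1 (ENSMUSG00000028649.18, chr4:123349633-123684360, minus strand) had the most peaks of the 7 genes, 29 with 383 tags and 39 with 627 tags, spread over the whole coding sequence. It ranked 5 and 9 among all genes by peak count. Summits fell in the first 50% of the coding sequence 13 times and in the rest 14 times in replicate 1, and 18 and 19 times in replicate 2. Exon 36 (5331 nt), which 4 of the 6 coding transcripts annotated across it contain, had 4 peaks in each library, with 70 and 131 tags over 29.9% and 52.4% of its length. In replicate 2 a further pair of peaks, with 8 and 10 tags, lay in an exon found in a single annotated transcript. The last exon of 1513 nt, mostly 3′UTR and annotated in full in 1 of 6 coding transcripts, had no peak in either library. Exon 57 held the pairs with the most tags, one of 23 and 34 tags with summits 149 nt apart and one of 34 and 21 tags with summits 33 nt apart. The latter, the strongest with summits at most 100 nt apart, is shown from the minus strand of chr4:123432097-123432196.
Macf1 exon 57: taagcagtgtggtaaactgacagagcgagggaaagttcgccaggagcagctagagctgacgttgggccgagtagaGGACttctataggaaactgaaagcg

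Dst (ENSMUSG00000026131.18, chr1:33908225-34308661, plus strand) has 23201 nt of exon, about as many as Macf1, but held few tags. It had 1 peak of 6 tags in replicate 1, and 8 peaks with 37 tags in replicate 2. The single peak of replicate 1, in exon 46, was met in replicate 2 by one of 8 tags with the same start, and it was the strongest Dst peak of both lists. Exon 39 of 5292 nt, which 3 of the 5 coding transcripts annotated across it contain, had 1 peak of 4 tags, in replicate 2. That repeated position is shown because all of the signal of Dst found in both libraries rests on it (plus strand, chr1:34199305-34199404).
Dst exon 46: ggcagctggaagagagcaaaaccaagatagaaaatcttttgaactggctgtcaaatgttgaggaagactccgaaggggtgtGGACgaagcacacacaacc

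**Figure D2:**
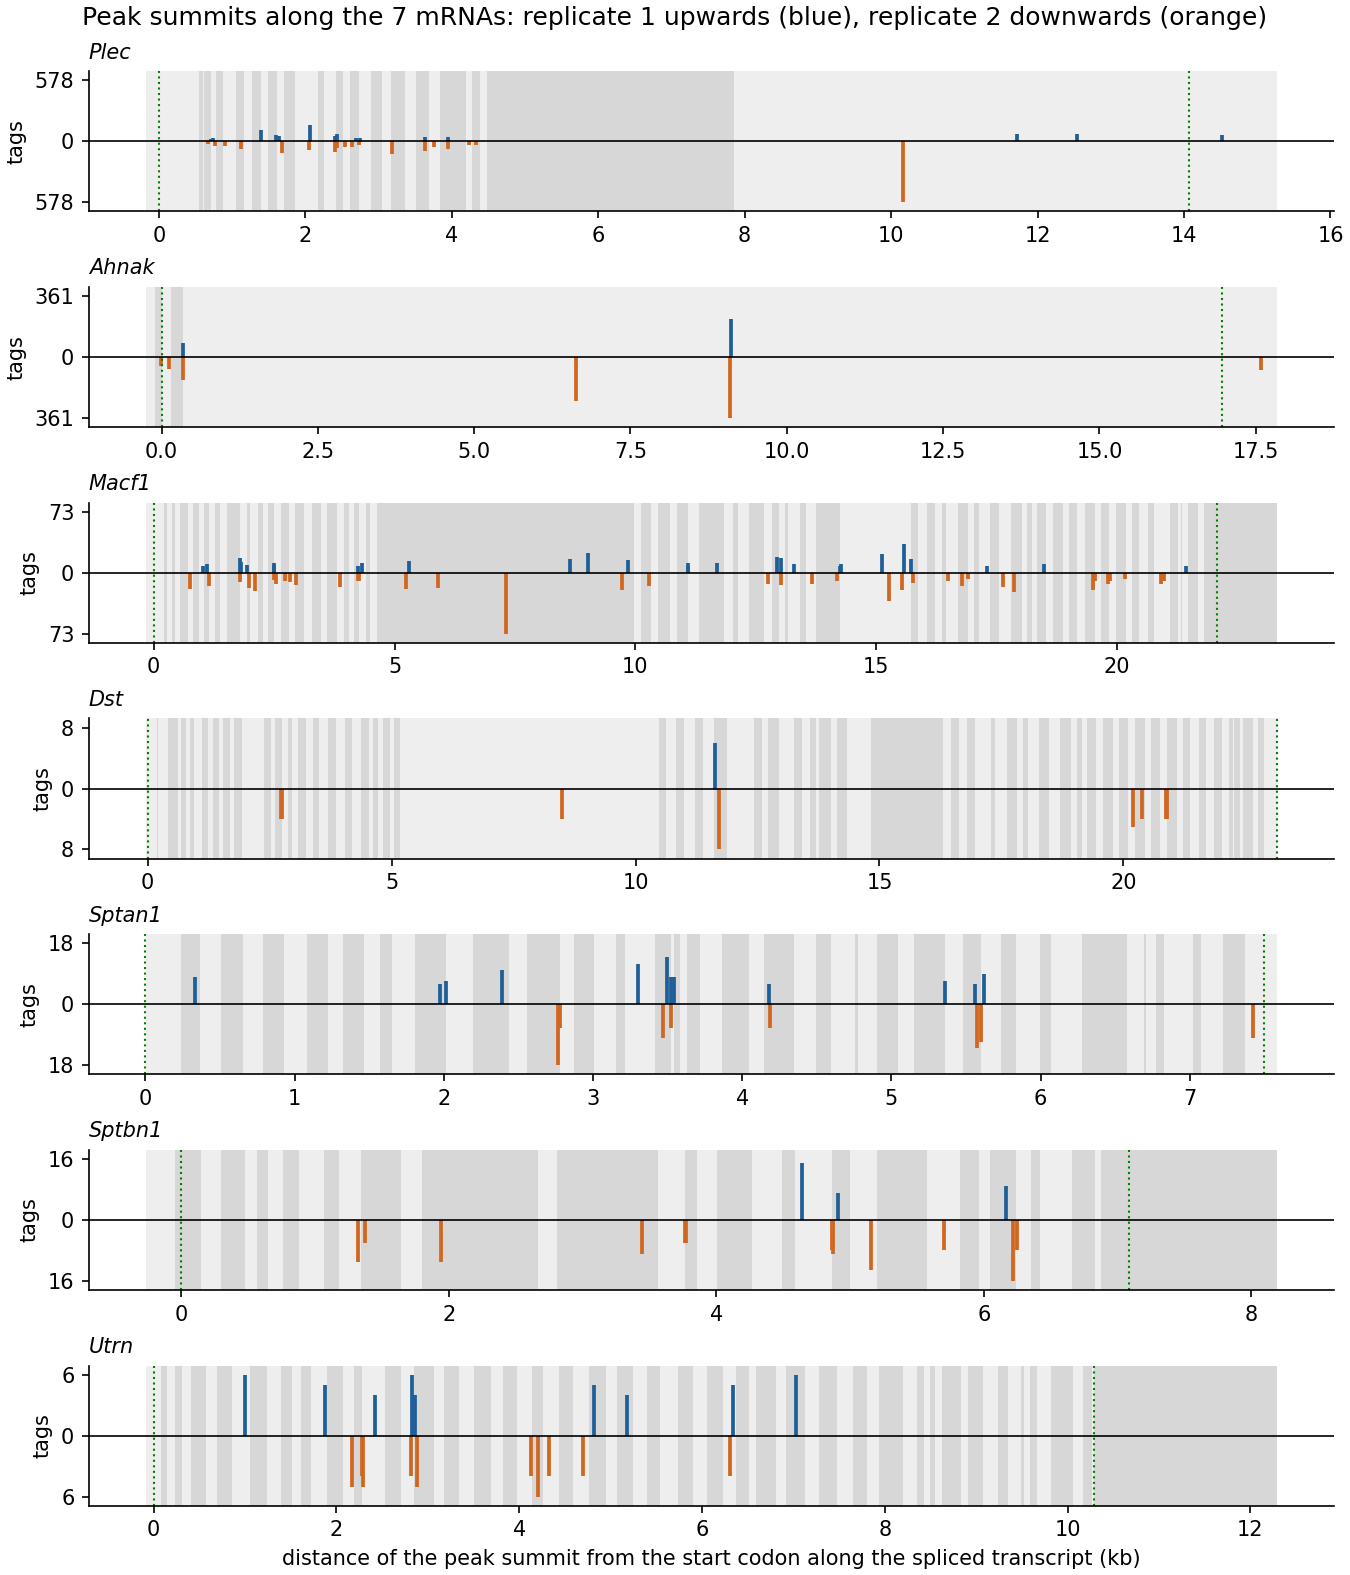
Peak summits along the spliced mRNA of each gene, as distance from the start codon in kb, with the tags of each peak upwards for replicate 1 and downwards for replicate 2; the tag axis differs between genes, grey bands mark alternating exons and dotted lines the start and stop codons. Plec has many summits before exon 32, which has no listed sense peak, and few after it. Macf1 summits run over the whole coding sequence, and the 7 and 10 summits that fall outside the exons of the transcript drawn are not shown.

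The spectrins of the macrophage membrane skeleton are encoded by many short exons, and their peaks followed them. Sptan1 (ENSMUSG00000057738.13, chr2:29965560-30031451, plus strand) had 12 peaks with 101 tags in replicate 1 and 8 with 83 in replicate 2, of which 5 in each library overlapped. Peaks touched 12 and 8 of its 57 exons, 5 of them in both. Exon 25 of Sptan1 is only 24 nt long and was itself a peak with the same edges in both libraries, of 8 and 7 tags. It is printed whole because it shows how closely a peak can follow an exon (plus strand, chr2:30003674-30003697).
Sptan1 exon 25: gaggtgtatggtgcgatgcccagg
The neighbouring exon 24 was itself a peak of 14 tags in replicate 1, and in replicate 2 it lay within a wider peak of 10 tags that reached into both introns. Exon 26 of 36 nt was itself a peak of 8 tags in replicate 1. Sptbn1 (ENSMUSG00000020315.18, chr11:30099395-30268175, minus strand) had 3 peaks with 31 tags in replicate 1 and 12 with 111 tags in replicate 2. All 3 peaks of replicate 1 were met in replicate 2, in exons 23, 24 and 30, with 15, 7 and 9 tags in replicate 1 and 8, 9 and 16 in replicate 2. The order of these positions by tags thus differed between libraries.

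Utrn (ENSMUSG00000019820.11, chr10:12382188-12869365, minus strand) had 11 peaks with 53 tags and 16 with 71 tags, none above 6 tags. Peaks found again, 4 in each library, lay in exons 19, 21, 22 and 43 and had 4 to 6 tags in replicate 1 and 4 to 5 in replicate 2. Summits outside its exons numbered 2 in replicate 1 and 6 in replicate 2, and none of those positions was shared. The last exon of 2009 nt, almost wholly 3′UTR, had no peak in either library.

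All 7 genes had positions that were found again in the other library. Overlap by at least 1 base on the same strand was met by 42 of 76 peaks of replicate 1 (55.3%, exact 95% binomial interval 43.4% to 66.7%), against 36.9% of all sense peaks. In replicate 2 it was met by 43 of 109 (39.4%, 30.2% to 49.3%), against 25.2% of all. Each of the 7 genes had at least 1 such peak. Over all protein-coding genes 1993 had one (9.08% of 21951), while 3739 had a sense peak in both libraries. The 7 genes were chosen for having peaks, so this count describes the choice. The intervals cover counting error only, and peaks of 1 gene share its level, so they are not independent. Overlap is also met more easily where peaks cover more of a gene. In Plec, replicate 2 covered 39.3% of the exon bases covered in replicate 1, and 42.6% of all its exon bases. The values were 44.5% and 36.9% in Macf1 and 93.1% and 20.2% in Ahnak. Only in Plec was the first value the lower. The part of coverage in the shares was not tested.

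The same shares were taken by the strength of the peak. Among peaks of 3 to 5 tags, 3 of 8 and 4 of 21 were found again (37.5% and 19.0%), against 10.9% and 5.15% of all sense peaks of that strength. Among those of 6 to 9 tags the shares were 48% and 33.3% against 31.1% and 13.7%. The intervals below 10 tags held the share of all peaks except at 3 to 5 tags in replicate 2, where the lower bound was 5.45%. From 10 to 19 tags the shares were 50% and 38.9% against 55.1% and 30.7%, and from 20 to 49 tags 91.7% and 50% against 72.8% and 53.8%, with the share of all peaks inside each interval. For peaks of 50 tags or more, which were all in Plec, Ahnak and Macf1, the shares were lower than over all genes, with 6 of 11 and 12 of 20 found again (54.5% and 60%) against 77.3% and 75.0% of all such peaks. In that range the intervals, 23.4% to 83.3% and 36.1% to 80.9%, hold the share of all peaks. Strong peaks with a partner were 4 of 8 in Plec and 2 of 3 in Ahnak in replicate 1, and 9 of 12 in Plec, 3 of 7 in Ahnak and 0 of 1 in Macf1 in replicate 2.

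**Figure D3:**
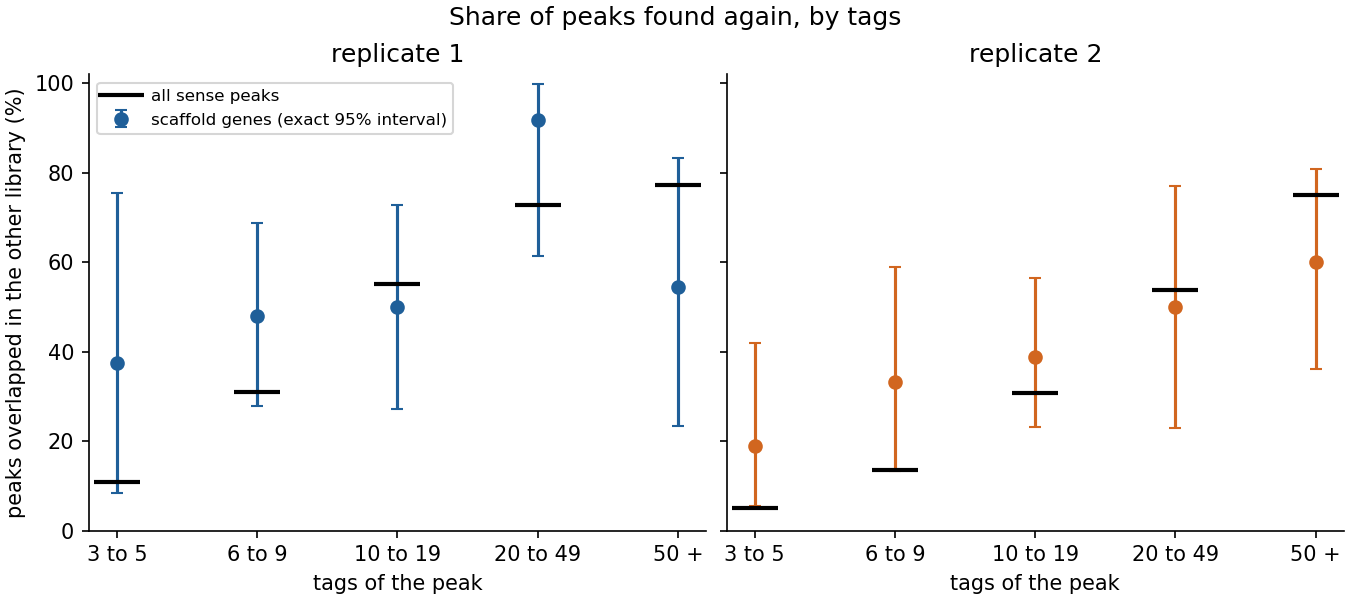
Share of peaks overlapped by at least 1 base in the other library (%), by the tags of the peak, for the scaffold genes (points with exact 95% binomial intervals) and for all sense peaks (black bars). Below 10 tags the points lie above the bars in both libraries, and at 50 tags or more they lie below them; the bars lie inside the intervals except at 3 to 5 tags in replicate 2.

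The overlaps made 46 pairs of peaks. Within them, 9 pairs had both edges on the same bases (19.6%, against 11.0% of 5132 pairs over all genes). All 9 had both edges on annotated exon edges. Such peaks were 31.6% and 29.4% of the scaffold peaks, against 16.5% and 16.3% of all sense peaks, so the edges followed the exons. In 32 pairs the summits were at most 50 nt apart (69.6% against 63.5%). The median distance of the summits was 32 nt, against 30 nt over all pairs. Summits of Ahnak pairs were at most 65 nt apart, while in Plec, where peaks of one library spanned several of the other, 1 pair was 1143 nt apart. Tags of paired peaks ranged from 4 and 5 tags in Utrn to 225 and 361 in Ahnak. In 3 pairs of Plec the same peak of 154 tags was met by peaks of 80, 103 and 113 tags.

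**Figure D4:**
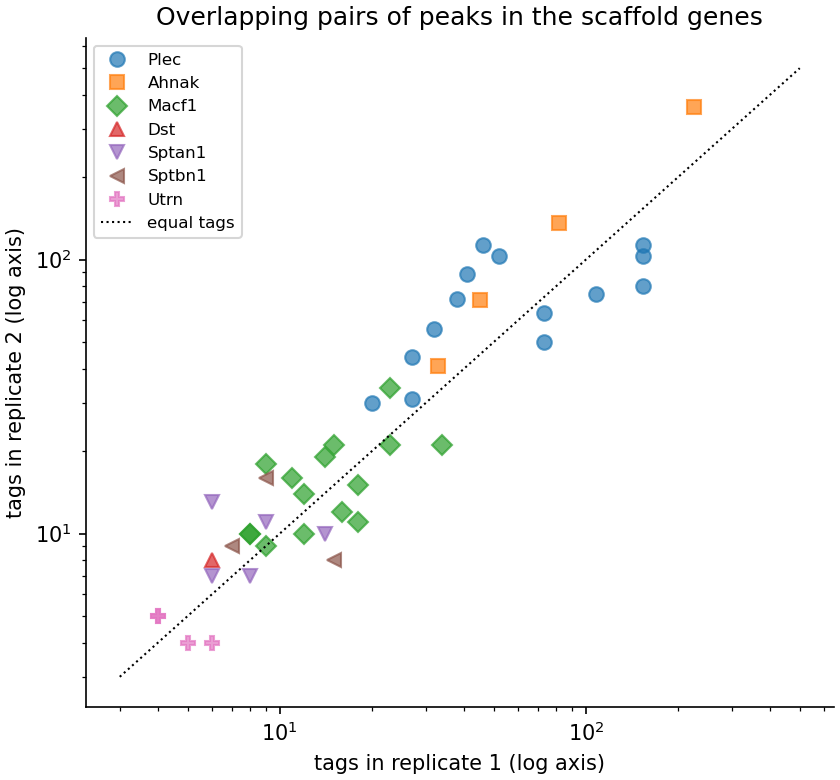
Tags of the 46 overlapping pairs of peaks in replicate 1 and replicate 2 (log axes), 1 symbol per gene, with a dotted line of equal tags; a peak that overlaps several of the other library appears once for each. All 4 Ahnak pairs lie above the line, up to 225 and 361 tags, and the Utrn pairs lie at 4 to 6 tags. The line makes no allowance for the tags of the whole lists, of which replicate 2 held 1.71 times as many.

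Coding sequence held most of the peaks. By the region that covered most of each peak in the authors' annotation, it was coding in 60 of 76 peaks (78.9%, 68.1% to 87.5%) and 89 of 109 (81.7%, 73.1% to 88.4%), against 46.7% and 44.3% of all sense peaks. Macf1 gave 25 and 36 of these coding peaks. Ahnak differed, with 1 of 5 peaks coding in replicate 1 and 3 of 8 in replicate 2, and 4 mainly intronic in each library. Coding sequence makes up 14073 of the 15455 nt of exon in Plec, 22065 of 23495 in Macf1 and 10290 of 12382 in Utrn. A 3′UTR held 1 peak in each library, in Plec in replicate 1 and in Ahnak in replicate 2, against 12.4% and 11.7% of all sense peaks. No peak was mainly in a 5′UTR. Introns covered most of 15 and 19 peaks (19.7% and 17.4%, against 37.7% and 40.8% of all), and some of these had their summit in an exon. Only 7 and 10 summits, in Ahnak, Macf1 and Utrn, lay outside the exons of the transcript used.

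Exon edges bounded many peaks. At least 1 edge fell exactly on an annotated exon edge in 46 of 76 peaks (60.5%, 48.6% to 71.6%) and 82 of 109 (75.2%, 66.0% to 83.0%), against 42.6% and 42.0% of all sense peaks. Both edges did so in 24 and 32 peaks (31.6% and 29.4%, against 16.5% and 16.3%). In replicate 2 such an edge was found in 11 of 12 peaks of Sptbn1, 7 of 8 of Dst, 15 of 18 of Plec and 31 of 39 of Macf1, whereas the Ahnak peaks, most of them within its giant exon or its introns, had none in replicate 1 and 2 of 8 in replicate 2. Those with an edge on an exon border were found again in 65.2% of cases in replicate 1, against 40% of those without, and in 39.0% against 40.7% in replicate 2. Over all sense peaks the shares were 47.8% against 28.8% in replicate 1 and 32.7% against 19.8% in replicate 2, higher with such an edge in both libraries.

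GGAC was counted in the 49 and 68 peaks that lay within 1 exon, on the strand of the mRNA. It occurred in 25 of 49 peaks (51.0%, 36.3% to 65.6%) and in 43 of 68 (63.2%, 50.7% to 74.6%). Windows of equal length over the same transcripts held it in 54.4% and 52.5% of cases, and all peaks within 1 exon in 51.9% and 51.4%, all within the intervals of the scaffold peaks. The longer GGACT occurred in 16.3% and 20.6% of peaks, against 18.6% and 17.9% of equal windows. Of the sequences printed above, those of Plec exon 15, Ahnak, Macf1 and Dst hold 1 GGAC each, while those of Plec exon 32 and Sptan1 exon 25 hold none. The strongest shared peaks of the remaining genes are not printed. Around their summits, Sptan1 exon 24 holds 1 GGAC, and Sptbn1 exon 30 and Utrn exon 21 hold none. A match is a description of the letters and not a mapped methylation site.

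Related genes and partners gave a mixed picture, with 17 of the 39 matched (43.6%) having a sense peak in both libraries, 18 having none in either, and the background for all genes as given above. The spectrin genes Sptb and Sptbn4 had no peak in either library. Neither had the epithelial plakins Dsp, Evpl, Ppl and Eppk1, nor Dmd, which encodes dystrophin. Ahnak2, the relative of Ahnak, had 49 and 60 tags. Both alpha-actinins, which crosslink actin, had peaks, with 90 and 117 tags in Actn1 and 6 and 59 in Actn4. Of the proteins 4.1, which attach spectrin to the membrane, Epb41l1 had 37 and 53 tags and Epb41l2 37 and 46. Syne3, a nesprin that ties the nucleus to the cytoskeleton, had 57 and 97, and the giant nesprin gene Syne1 8 and 14. Among the partners, Vim, whose vimentin filaments plectin binds, had 308 and 303 tags, Mapre1, encoding the microtubule end protein EB1, 32 and 107, and Anxa2, encoding annexin A2, 35 and 74. In the dystrophin complex, Dag1 had 6 and 14 tags and Sntb2 4 and 14. Add1 had 24 and 32 and Ank2 4 and 14.

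By peaks and tags on a log2 scale in both libraries (4 values, 6922 other genes), the nearest gene to Plec was Zeb2, with 18 and 22 peaks and 738 and 1459 tags. Nearest to Macf1 was Myof, with 26 and 29 peaks and 354 and 632 tags, and nearest to Ahnak was Grn, with 543 and 851 tags. Dnajc13 lay nearest to Sptan1, Pparg to Sptbn1, Camta1 to Utrn and Mthfd1l to Dst. These are likenesses of count in 2 libraries only.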

How the data were processed

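IGF2BP2 immunoprecipitation libraries from mouse macrophages (2, each with a peak list) and 2 inputs were made. The submitters' processing notes name bcl2fastq, TopHat2 and GRCm38. How peaks were called, at what threshold and with what use of the input is not given in the sources used here. The authors' deposited lists give for each peak, per the file headers, a count of tags, a maximum height (a signal in stacked tags), a gene and the share of the peak in each region. Starts and summits as deposited count from 0 and were moved by 1 base, after which 3981 and 5688 starts fell on annotated exon starts, against 28 and 41 as given.

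Peaks were joined to genes by identifier, and exons, positions and sequences came from GENCODE mouse release M21, using the basic protein-coding transcript with the longest coding sequence. Python 3.11.15, pandas 2.3.3, numpy 2.4.6 and scipy 1.17.1 were used. Intervals are exact (Clopper-Pearson, 95%). Overlap needed 1 bp on the same strand. Functions were tested on simulated peaks. No test between groups could be made, since both libraries belong to 1 group, and the library depth is unknown.

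Named were the 7 genes, up to 3 genes of each related list by tags, and some further genes of those lists with no peak. Also named were the nearest gene to each by log2 peaks and tags. Sequences shown were those of the strongest shared peaks of Plec, Ahnak, Macf1 and Dst, and of exons the positions turn on. The members and lists were chosen with earlier results of these data known. Sptbn5 was not matched, and some genes of the lists are not reported here.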

Additional observations from a re-analysis of the deposited data

Results flagged for a closer look

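Antisense peaks, which none of the counts above use, were listed at 3 of the genes. They were flagged for holding more tags than the 3 that a count of 0 allows. No peak of either list has fewer than 3 tags, so passing that limit was nearly fixed by being listed and is no test. At Plec they held 10 tags in replicate 1 (1 peak) and 18 tags in replicate 2 (3 peaks), all opposite exon 32. At Ahnak they held 4 tags in replicate 1 and 16 in replicate 2, the latter in 4 peaks opposite exon 5. At Macf1 they held 4 tags in replicate 1, opposite exon 55, and none in replicate 2. None of these 3 and 7 peaks was overlapped by a peak of the other library. Over all genes the lists held 661 and 975 antisense peaks, with a median of 4 tags.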

How the results depend on the processing

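The lists give no input, no depth and no threshold, and 2 libraries allow no spread beyond their 2 values, so no level was tested. All 7 genes kept a sense peak in both libraries with peaks of at least 6 tags or with antisense peaks included, and 5 did in the stronger 50% of each list. Requiring an overlap of 50% of both peaks lowered the share found again to 40.8% in replicate 1 and 28.4% in replicate 2. Taken at the summit in the reference, coding sequence rose to 89.5% and 89.0%. In windows of 100 nt on each side of the summit, GGAC was found in 71.4% and 76.5% of cases. These windows are longer than the median peak, of 153 and 159 nt, and no background share was taken for them. GGACT in the peaks themselves was in 16.3% and 20.6%. The order of genes by tags per kb was the same with heights, exonic peaks or coding length, and without either replicate 5 of 7 genes kept their place. Among 67 alternative values, 8 of the main results and 4 of single genes (Plec and Ahnak by height, Sptan1 and Utrn by exonic peaks) left the range set for them. For single genes that range was the standard deviation of the 2 libraries around their mean. A value without 1 replicate cannot leave it, so those values among the 67 are no check of stability. No paired analysis was possible because the input libraries have no analysed file.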
